A study of Homo sapiens with 3 samples.

Results

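Genes that start blood clotting and genes that activate plasminogen were compared between a pair of messenger RNA libraries of A375 cells, a human melanoma line with mutant BRAF. The group holds 8 genes, taken by symbol from the 20344 genes listed in both deposited tables: F3, TFPI, TFPI2, THBD, PLAU, PLAUR, PLAT and SERPINE2. All 8 were listed. They had been chosen by their symbols, as a pathway, with the FPKM ratio between these same libraries already known for some of them, so their differences are given as a description, without a test.

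The series has 3 samples, of which 2 were analysed, with 1 library each: the library titled A375-VR, Prop (called here the A375-VR library) and the library titled A375, Prop (the A375 library). Prop stands in both titles. Propranolol, which blocks beta-adrenergic receptors, is given in the protocol at 20 µM for 24 h, with DMSO as its alternative. The remaining sample, A375-VR with DMSO, was not analysed here. The labels disagree. The protocol gives A375-VR cells for every sample, treated with either agent, while the title and cell line label of the A375 library give A375. The treatment of either library rests on its title alone, and the protocol names none for A375 cells, so that of the A375 library is in doubt. For the DMSO sample, titled A375-VR, the cell line is given as A375. The titles were followed here. VR is not spelled out, although the series title speaks of resistance to the BRAF inhibitor vemurafenib. Cell line, treatment, culture and library preparation therefore cannot be told apart in any difference below. There is no replicate and no p-value, and neither title names an untreated library. The intervals cover counting error alone.

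Tissue factor, the product of F3, is a membrane protein that binds coagulation factor VII and starts the clotting cascade when cells that carry it meet blood. Many tumour cells carry it. Plasminogen is cut to plasmin, a protease that dissolves fibrin and matrix, by urokinase (PLAU), which works while bound to its receptor on the cell surface (PLAUR), and by tissue plasminogen activator (PLAT), which works best on fibrin. Serpins such as the product of SERPINE2 trap these activators and thrombin. Melanocytes and melanoma cells are known to make tissue plasminogen activator.

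Values are FPKM, a count of reads or fragments divided by the gene's length in kilobases and scaled by the library total. Levels of different genes can be set side by side only as far as those lengths hold. Matched to GENCODE, where all exons of a gene are joined, the lengths were 2875 bases for F3 and 11714 for TFPI. Orders, shares and multiples between genes depend on this choice of length. A ratio is FPKM in the A375-VR library over FPKM in the A375 library. A gene passes the filter where its FPKM reaches 1 in either library. It is called 2-fold higher or lower with a difference of at least 1 in size in log2(FPKM + 1). Of the 8 genes, 5 passed the filter. F3 was the only one of them called lower, and SERPINE2 the only one called higher. Over all 10761 genes past the filter, 0.613% were called lower and 3.14% higher, or 3.75% in either direction. Nothing is read from this comparison, since the genes were picked with that contrast known.

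The stretches of 250 bases before the start of F3, of PLAUR and TFPI2, and of SERPINE2 are shown because F3 and SERPINE2 were the genes called, and PLAUR and TFPI2 share a motif with F3 but were not called. They come from RefSeq on GRCh38.p14, where 6 of the 8 genes matched, with 8 windows in all, since SERPINE2 and PLAU each have a pair of starts. All those printed lie on the minus strand and read 5′ to 3′ along the gene: F3 at chr1:94541760-94542009, PLAUR at chr19:43670170-43670419, TFPI2 at chr7:93890754-93891003, and SERPINE2 at chr2:224031479-224031728 for one start and chr2:224038641-224038890 for the other. Capitals in F3, PLAUR and TFPI2 mark matches to TGANTCA, a looser form of the AP-1 consensus that allows any base (N) in the middle. TGAATCA, found in F3 and TFPI2, fits the looser form only. Capitals in F3 also mark CGGAGTTTCC, the kappaB site known in that promoter. Capitals in SERPINE2 mark CCAAT and CACGTG, an E-box. Both strands were searched.
F3: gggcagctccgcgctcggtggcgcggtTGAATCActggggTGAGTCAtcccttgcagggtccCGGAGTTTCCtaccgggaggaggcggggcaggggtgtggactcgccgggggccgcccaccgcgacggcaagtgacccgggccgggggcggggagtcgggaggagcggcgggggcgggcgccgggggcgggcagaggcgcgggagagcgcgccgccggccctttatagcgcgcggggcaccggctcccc
PLAUR: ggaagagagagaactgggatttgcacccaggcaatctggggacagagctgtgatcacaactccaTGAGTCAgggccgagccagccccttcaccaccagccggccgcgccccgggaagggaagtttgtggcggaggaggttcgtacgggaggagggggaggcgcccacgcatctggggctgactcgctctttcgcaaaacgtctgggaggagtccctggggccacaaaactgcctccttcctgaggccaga
TFPI2: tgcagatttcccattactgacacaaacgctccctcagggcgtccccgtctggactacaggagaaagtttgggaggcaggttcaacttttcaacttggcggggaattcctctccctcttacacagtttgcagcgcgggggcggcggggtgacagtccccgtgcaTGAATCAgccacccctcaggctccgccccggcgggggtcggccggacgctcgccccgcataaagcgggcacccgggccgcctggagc
SERPINE2, one start: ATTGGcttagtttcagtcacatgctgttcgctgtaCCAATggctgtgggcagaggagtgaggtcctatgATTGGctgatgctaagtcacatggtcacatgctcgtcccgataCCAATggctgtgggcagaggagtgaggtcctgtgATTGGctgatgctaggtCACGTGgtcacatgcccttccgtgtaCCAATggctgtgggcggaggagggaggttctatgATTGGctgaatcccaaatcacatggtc
SERPINE2, other start: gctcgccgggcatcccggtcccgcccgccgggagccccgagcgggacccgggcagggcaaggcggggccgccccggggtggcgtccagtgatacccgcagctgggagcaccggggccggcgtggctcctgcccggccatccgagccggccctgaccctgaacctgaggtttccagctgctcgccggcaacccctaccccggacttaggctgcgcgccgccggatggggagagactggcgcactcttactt

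The F3 window held 2 AP-1 matches, TGAATCA beginning 223 bases before the start and TGAGTCA beginning 210 bases before it. Its kappaB site began 188 bases before the start. It also held 4 matches to GGGCGG, the core that SP1 binds. PLAUR had 1 AP-1 match, TGAGTCA, beginning 186 bases before its start, and TFPI2 had 1, TGAATCA, at 87 bases. Neither PLAU window, nor those of TFPI and SERPINE2, held an AP-1 match. Among 35116 windows of this length in the same table, 6.57% held TGANTCA, 42.6% GGGCGG and 0.0826% CGGAGTTTCC. The first SERPINE2 window had 7 CCAAT matches, in either direction, spaced along the whole stretch, and 1 CACGTG. The CCAAT matches sit in a block of letters that recurs with small changes along the window, so they are not independent of one another. At least 3 CCAAT matches were found in 2.93% of all windows, and CACGTG in 6.34%. The other SERPINE2 window held neither. The motifs were chosen with these letters in view, and a match is not evidence of binding.

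Tissue factor message was lower in the A375-VR library, with 1.10 FPKM in the A375-VR library and 5.66 FPKM in the A375 library. F3 (Entrez 2152) spans positions 94994729 to 95007315 of chromosome 1 in GRCh37, on the minus strand. The ratio was 0.194 (95% exact counting interval 0.142 to 0.262), from 52 recovered reads in the A375-VR library and 290 in the A375 library. Recovered reads are whole numbers worked back from the FPKM. Fewer cells with the message and less of it per cell cannot be told apart in such bulk RNA. In log2(FPKM + 1) the difference was -1.67, the 8th lowest of the 10761 genes past the filter. With a pseudocount of 5 in place of 1 the difference was -0.81 and no longer counted as 2-fold. That pseudocount is above the level of F3 in the A375-VR library and close to its level in the A375 library. In the order of levels F3 stood at place 10459 of all genes in the A375-VR library and at place 6130 in the A375 library.

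The Kunitz inhibitors TFPI2 and TFPI had ratios above 1. TFPI2, a Kunitz-type inhibitor secreted into the matrix that blocks plasmin and several other proteases, had 8.10 FPKM in the A375-VR library and 6.85 FPKM in the A375 library. Its ratio was 1.18, with an interval of 0.905 to 1.55 that includes 1, from 119 recovered reads in the A375-VR library and 109 in the A375 library. TFPI, the inhibitor that shuts down tissue factor with factor VII once factor X is active, was under the filter, with 0.654 FPKM in the A375-VR library and 0.431 FPKM in the A375 library. Its ratio was 1.52 (1.02 to 2.28), from 63 recovered reads in the A375-VR library and 45 in the A375 library. F3 stood at 0.126 times the summed FPKM of TFPI and TFPI2 in the A375-VR library, and at 0.778 times that sum in the A375 library. These are ratios of messenger RNA per length and not of protein. Nearly all of that sum was TFPI2 in both libraries. Beside TFPI alone F3 had the higher FPKM in both. Their counting intervals overlapped in the A375-VR library on 63 TFPI reads, the smallest number that fits. Matched to the GENCODE length, TFPI had 126 reads there, and its interval of level was not worked out for that number. TFPI2 (chromosome 7, 93514708 to 93520065) lies wholly within GNGT1 on the opposite strand, which had 0.618 FPKM in the A375-VR library and 0.119 FPKM in the A375 library. TFPI (chromosome 2, 188328957 to 188430487) overlaps the antisense gene CALCRL-AS1 over 90.7% of its span. Whether strand was used in counting is not stated in any source at hand, so reads of such pairs cannot be told apart.

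THBD encodes thrombomodulin, which binds thrombin on the cell surface and turns it towards activating the anticoagulant protein C. It had 0.0592 FPKM in the A375-VR library and 0.246 FPKM in the A375 library, under the filter in both. Those values rest on 4 recovered reads in the A375-VR library and 18 in the A375 library, and the ratio of 0.241 has an interval of 0.0593 to 0.731. Thrombomodulin message was thus near the limit of detection in both libraries. THBD (Entrez 7056) lies on chromosome 20 at 23026270 to 23030309.

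**Figure D1:**
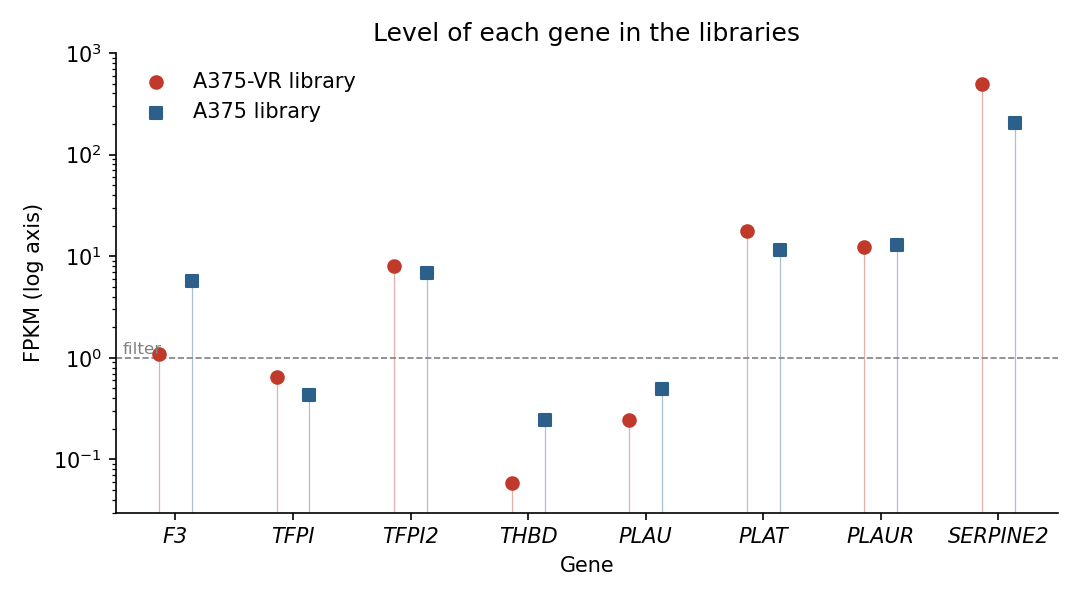
FPKM of the 8 genes on a log axis, with 1 point per library (red circles, A375-VR library; blue squares, A375 library) and the filter at 1 as a dashed line. SERPINE2 stands above all others at 499 FPKM in the A375-VR library and 206 FPKM in the A375 library, while TFPI, THBD and PLAU lie under the filter in both libraries.

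Of the plasminogen activators, the tissue type was the one with sizeable message. PLAT had 17.6 FPKM in the A375-VR library and 11.4 FPKM in the A375 library, a ratio of 1.54 (1.44 to 1.66) from 1918 recovered reads in the A375-VR library and 1347 in the A375 library. Its difference of 0.58 in log2(FPKM + 1) was under the 2-fold call and lay inside the range from -0.55 to 0.84 that held the middle of all genes past the filter, between their 5th and 95th percentiles. PLAU, urokinase, was under the filter, with 0.247 FPKM in the A375-VR library and 0.495 FPKM in the A375 library. On 6 recovered reads in the A375-VR library and 13 in the A375 library, its ratio of 0.500 (0.156 to 1.41) could not be told from 1. PLAT was therefore 71.2 times as abundant per length as PLAU in the A375-VR library and 23.1 times in the A375 library. Both multiples rest on those few PLAU reads and are loose. PLAT (Entrez 5327) is on chromosome 8. PLAU (Entrez 5328) lies on chromosome 10 at 75668935 to 75677254, where the opposite-strand gene C10orf55 covers 90.5% of it. C10orf55 was listed at 0 in both libraries, and whether reads of this pair were dropped or shared was not tested.

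The urokinase receptor showed next to no difference. PLAUR, a receptor held to the membrane by a lipid anchor that keeps urokinase at the cell surface, had 12.3 FPKM in the A375-VR library and 12.8 FPKM in the A375 library. The ratio was 0.958 (0.875 to 1.05) from 900 recovered reads in the A375-VR library and 1018 in the A375 library. Receptor message exceeded that of its ligand PLAU 49.6 times in the A375-VR library and 25.9 times in the A375 library. These multiples are loose, since PLAU had 6 recovered reads in the A375-VR library and 13 in the A375 library. Its counting intervals were 0.0908 to 0.539 FPKM in the A375-VR library and 0.263 to 0.846 FPKM in the A375 library. The gap between the multiples follows PLAU, whose ratio could not be told from 1. PLAUR (Entrez 5329) lies on chromosome 19 at 44150247 to 44174699.

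SERPINE2 had by far the most message of the 8 genes and was higher in the A375-VR library, with 499 FPKM there and 206 FPKM in the A375 library. It encodes protease nexin-1, a secreted serpin that traps thrombin, urokinase and tissue plasminogen activator at the cell surface. The ratio was 2.42 (2.39 to 2.46), from 72991 recovered reads in the A375-VR library and 32615 in the A375 library, and the difference in log2(FPKM + 1) was 1.27, the 170th highest of the genes past the filter. SERPINE2 was the 50th most abundant of all 20344 genes in the A375-VR library and the 175th in the A375 library. It made up 92.6% of the summed FPKM of the 8 genes in the A375-VR library and 84.4% in the A375 library. Its FPKM was 27.9 times the sum of PLAT and PLAU in the A375-VR library and 17.3 times that sum in the A375 library. Like the ratio of F3 to TFPI and TFPI2, this is one of messages per length. SERPINE2 (Entrez 5270) lies on chromosome 2 at 224839762 to 224904035.

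**Figure D2:**
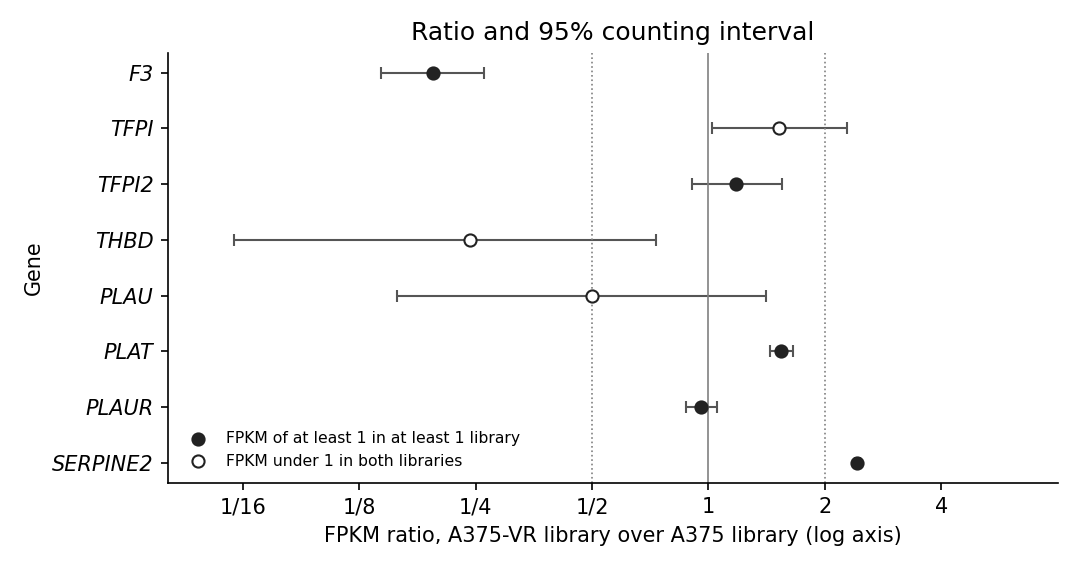
Ratio of FPKM, A375-VR library over A375 library, on a log axis with 95% exact counting intervals; filled points passed the filter and dotted lines mark 2-fold. Of the filled points, F3 at 0.194 and SERPINE2 at 2.42 lie beyond the dotted lines. Of the open points, THBD at 0.241 lies beyond the lower line and PLAU at 0.500 lies at it. The widest interval is that of THBD, from 0.0593 to 0.731.

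SERPINE2, TFPI2, F3 and THBD held the same places in the order of levels in both libraries, while PLAT and PLAUR, and TFPI and PLAU, changed places with each other. Both of these pairs had overlapping counting intervals in the A375 library, and TFPI and PLAU in the A375-VR library too. In the A375-VR library it ran SERPINE2, PLAT, PLAUR, TFPI2, F3, TFPI, PLAU and THBD. Counting intervals there parted the first 5, while F3 and TFPI, TFPI and PLAU, and PLAU and THBD overlapped. In the A375 library it ran SERPINE2, PLAUR, PLAT, TFPI2, F3, PLAU, TFPI and THBD, and the overlapping neighbours were PLAUR and PLAT, TFPI2 and F3, PLAU and TFPI, and TFPI and THBD. F3 had about the level of TFPI2 in the A375 library, with intervals of 5.03 to 6.35 FPKM for F3 and 5.62 to 8.26 FPKM for TFPI2. In the A375-VR library these were 0.822 to 1.44 FPKM for F3 and 6.71 to 9.69 FPKM for TFPI2, and did not overlap. Overlaps that involve TFPI, TFPI2 or PLAU rest on the smallest recovered reads, and larger true counts would narrow those intervals.

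**Figure D3:**
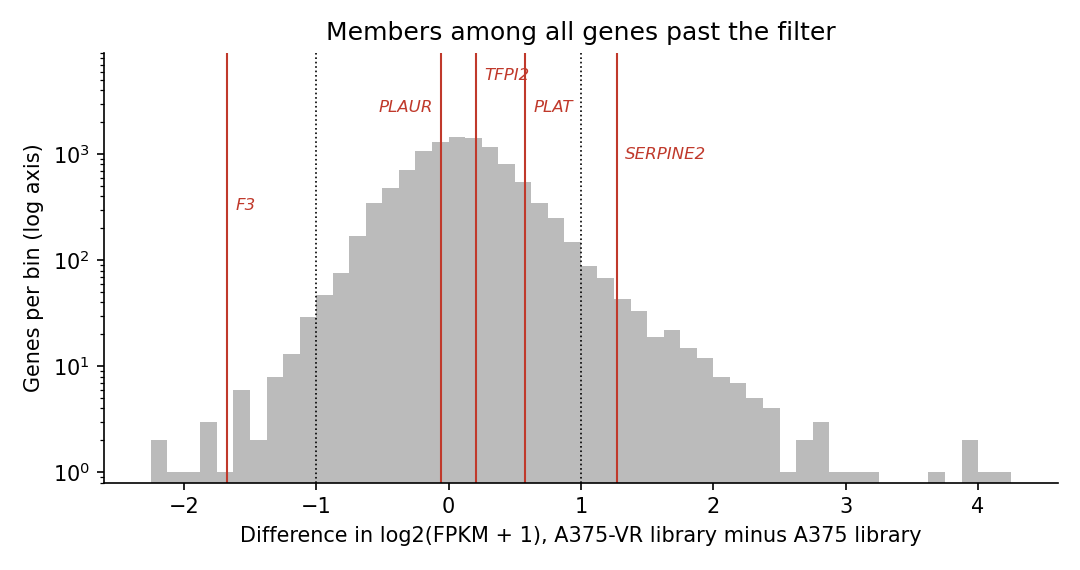
Number of genes (log axis) by difference in log2(FPKM + 1), A375-VR library minus A375 library, for the 10761 genes past the filter, with the 5 members among them as red lines and the 2-fold limits dotted. F3 at -1.67 lies in the lower tail, SERPINE2 at 1.27 in the upper one, and PLAUR, TFPI2 and PLAT in the body.

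For each of the 8 genes the nearest listed gene on either side on GRCh37 was also read, 16 in all. Of these 9 passed the filter and 0 were called in either direction, and with 3.75% of all genes called nothing is read from that count. ABCD3, a peroxisomal transporter 10.5 kb from F3, had 9.01 FPKM in the A375-VR library and 9.0 FPKM in the A375 library. MRPL44, a mitochondrial ribosomal protein gene 7.33 kb from SERPINE2, had 20.3 FPKM in the A375-VR library and 20.2 FPKM in the A375 library.

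The genes nearest to F3 in level in both libraries were SERPINB7, ANKRD1 and CSAG2. Nearness was the distance in the plane of the log2(FPKM + 1) values of the 2 libraries, which were 0.14, 0.25 and 0.28 from F3. SERPINB7, a serpin, had 1.20 FPKM in the A375-VR library and 5.13 FPKM in the A375 library. ANKRD1, an ankyrin repeat protein, had 1.17 FPKM in the A375-VR library and 6.92 FPKM in the A375 library. For SERPINE2 the nearest were SPARC, FTH1 and NQO1, at 0.31, 0.46 and 0.53. SPARC, a matrix protein, had 411 FPKM in the A375-VR library and 188 FPKM in the A375 library, and FTH1, the ferritin heavy chain, had 602 FPKM in the A375-VR library and 267 FPKM in the A375 library. With 2 libraries many genes share a pattern, and nothing further is read from it.

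The other genes of these pathways, 81 in 7 lists, had 46 members past the filter, of which 4 were called higher and 1 lower. That is 8.70% and 2.17%, beside 3.14% and 0.613% of all genes past the filter. Their median difference in log2(FPKM + 1) was 0.31, and that of all genes past the filter 0.10. The lists were chosen with earlier results of these data known.

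Circulating coagulation factors were hardly detected. Of 16 genes for factors and cofactors, 8 were listed at 0 in both libraries, F7 among them, the partner of tissue factor. The 1 gene past the filter was F12, the factor that starts contact activation, with 2.64 FPKM in the A375-VR library and 2.15 FPKM in the A375 library. Its ratio was 1.23 (0.937 to 1.61) and its difference, 0.21, is the median of the list. The other 15 stayed under 1 FPKM.

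Among 11 genes listed as anticoagulant 7 passed the filter, 1 was called higher and 0 lower, with a median difference of 0.08. The label is loose. SERPINA5, the gene called, inhibits the anticoagulant protein C, and GGCX and VKORC1 serve clotting factors, so the count is not one of anticoagulant genes alone. SERPINA5, the protein C inhibitor, which also inhibits urokinase, had 1.87 FPKM in the A375-VR library and 0.387 FPKM in the A375 library, a ratio of 4.83 (3.14 to 7.71) from 116 recovered reads in the A375-VR library and 26 in the A375 library. Its difference of 1.05 was no longer called after centring on the median ratio or with the trimmed mean of log ratios. PROCR, the endothelial protein C receptor, had 30.7 FPKM in the A375-VR library and 31.4 FPKM in the A375 library, far above THBD, with which it works on endothelium. ANXA5, which shields membrane phospholipid from clotting factors, had 127 FPKM in the A375-VR library and 126 FPKM in the A375 library. GGCX and VKORC1, the vitamin K cycle enzymes that ready clotting factors, had ratios of 1.07 and 0.905.

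Of the 4 protease-activated receptors, through which thrombin and other proteases signal to cells, 3 passed the filter and 0 were called, with a median difference of -0.05. F2R, the main thrombin receptor, had 30.2 FPKM in the A375-VR library and 39.7 FPKM in the A375 library, a ratio of 0.761 (0.718 to 0.806). F2RL1, which tissue factor complexes can cut, had 4.09 FPKM in the A375-VR library and 3.87 FPKM in the A375 library, and F2RL2 had 2.22 FPKM in the A375-VR library and 2.33 FPKM in the A375 library. Their ratios of 1.06 (0.865 to 1.29) and 0.954 (0.744 to 1.22) could not be told from 1.

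Plasminogen itself (PLG) was listed at 0 in both libraries, while its docking proteins were abundant. Of 11 genes in this list 6 passed the filter, 1 was called higher and 0 lower, and the median difference was 0.15. ANXA2 and S100A10, which together hold plasminogen and tissue plasminogen activator at the membrane, had ratios of 0.796 (0.773 to 0.819) and 0.967 (0.939 to 0.995). PLGRKT, a membrane receptor for plasminogen, had 20.0 FPKM in the A375-VR library and 15.9 FPKM in the A375 library. ENO1, a glycolytic enzyme that also binds plasminogen at the surface, had 928 FPKM in both. SERPINF2, the antiplasmin, had 2.69 FPKM in the A375-VR library and 0.765 FPKM in the A375 library, a ratio of 3.52 (1.55 to 9.0) that rests on 26 recovered reads in the A375-VR library and 8 in the A375 library. Its difference of 1.07 was no longer called after centring or with the trimmed mean.

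Receptors that clear activator and inhibitor complexes, and partners of PLAUR, mostly had differences above 0, most of them under 2-fold. Of 15 genes 10 passed the filter, 9 of them with a difference above 0 (60.3% of all genes past the filter), 2 called higher and 0 lower, with a median of 0.57. ITGB3, the integrin subunit that pairs with ITGAV as a vitronectin receptor, had 7.60 FPKM in the A375-VR library and 1.14 FPKM in the A375 library, a ratio of 6.68 (5.33 to 8.46). The 4 most abundant of those not called were all integrin subunits. ITGB1 had a ratio of 1.04, ITGA3 of 1.25, ITGB5 of 1.42 and ITGA5 of 1.60.

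Of 10 genes for matrix proteases that plasmin can activate and for their inhibitors, 7 passed the filter and 0 were called. A difference above 0 was found in 6 of the 7, beside 60.3% of all genes past the filter. Their median was 0.69, beside 0.10 for all genes past the filter, with a range of -0.39 to 0.86. MMP2, gelatinase A, had 54.8 FPKM in the A375-VR library and 32.0 FPKM in the A375 library, a ratio of 1.71 (1.63 to 1.80). The inhibitors TIMP1, TIMP2 and TIMP3 had ratios of 1.59, 1.64 and 1.67, none of them called. The gene past the filter with a difference below 0 was MMP3, named after its values were seen, with 1.66 FPKM in the A375-VR library and 2.49 FPKM in the A375 library, a ratio of 0.667 (0.469 to 0.940). Under the filter, and likewise named after their values were seen, MMP9 had a ratio of 0.305 (0.128 to 0.653), MMP10 of 3.41 (1.41 to 9.44) and MMP13 of 1.13 (0.604 to 2.13), each below 1 FPKM in both libraries.

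Of 14 genes for transcription factors known to act on the F3, PLAU or PLAUR promoters, 12 passed the filter, 0 were called higher and 1 lower, with a median of 0.06 that was -0.04 after centring and with the trimmed mean. The one called was JUN, a subunit of AP-1, with 5.74 FPKM in the A375-VR library and 12.9 FPKM in the A375 library, a ratio of 0.443 (0.368 to 0.532). The JUN relatives were not called, JUNB with a ratio of 1.30 (1.19 to 1.43) and JUND of 1.40 (1.33 to 1.48). FOSL1, the most abundant of the 7 AP-1 genes of this list in both libraries, had 113 FPKM in the A375-VR library and 125 FPKM in the A375 library, a ratio of 0.908 (0.868 to 0.949). RELA, a subunit of NF-kB, had a ratio of 1.04 (0.968 to 1.11). The looser AP-1 pattern printed above was in the windows of F3, PLAUR and TFPI2, whose ratios were 0.194, 0.958 and 1.18. Any part of AP-1 in these ratios was not tested. Messenger RNA of a factor does not give its activity, which was not measured.

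**Figure D4:**
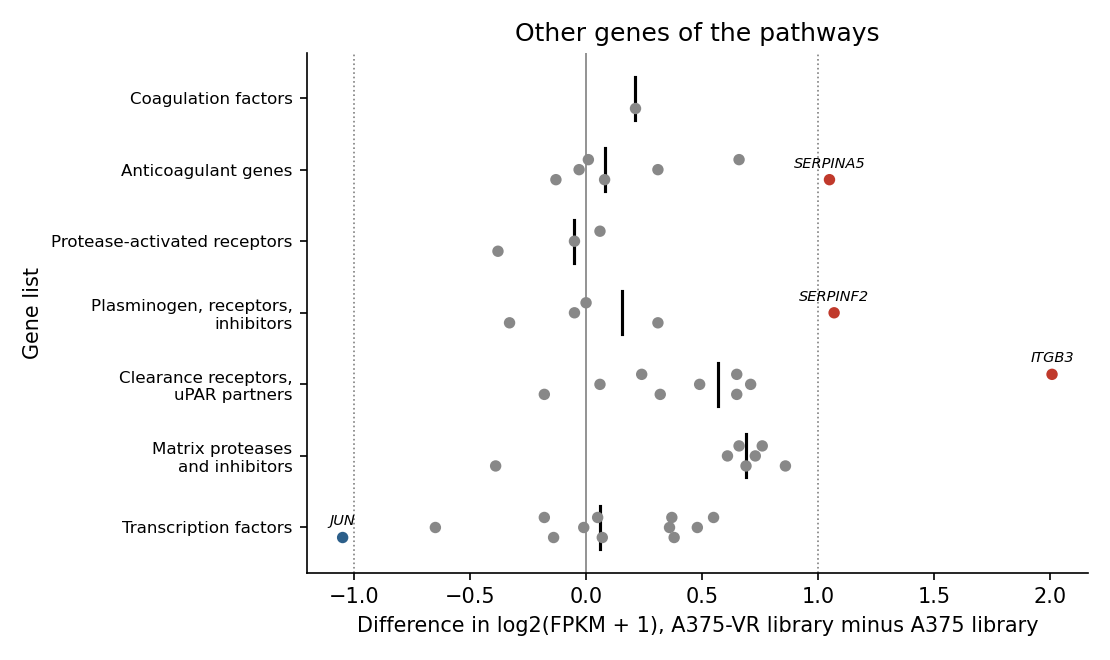
Difference in log2(FPKM + 1), A375-VR library minus A375 library, of 44 of the 46 other pathway genes past the filter in 7 lists; black bars are medians of whole lists, dotted lines the 2-fold limits, red points called higher and blue lower. ITGB3 at 2.01 stands furthest out of those drawn, JUN at -1.05 is the single gene called lower, and 6 of 7 matrix genes lie between 0 and 1.

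Several of the 8 genes are typical of endothelium or of monocytes, so markers of those cells were read as well. Of 8 endothelial markers, 2 reached an FPKM of 1 in a library, KDR and TIE1. The sum of the list was 2.75 FPKM in the A375-VR library and 1.84 FPKM in the A375 library, PECAM1 and CDH5 were under 0.12 in both, and ERG was listed at 0. Of 9 leukocyte markers 0 reached 1 FPKM, with sums of 2.04 FPKM in the A375-VR library and 0.147 FPKM in the A375 library, and PTPRC was listed at 0. Of 4 platelet markers 0 reached 1 FPKM. Fibroblast markers summed to 5.49 FPKM in the A375-VR library and 3.48 FPKM in the A375 library, nearly all LUM, and keratinocyte markers to 59.5 FPKM in the A375-VR library and 47.8 FPKM in the A375 library, nearly all KRT10. Of 9 melanocyte and melanoma markers 4 reached 1 FPKM. SOX10, the neural crest factor of this lineage, had 150 FPKM in the A375-VR library and 65.3 FPKM in the A375 library, while MITF had 3.47 FPKM in the A375-VR library and 6.47 FPKM in the A375 library. S100B had 12.6 FPKM in the A375-VR library and 3.72 FPKM in the A375 library. The pigment genes PMEL, MLANA and DCT were under 1 FPKM in both libraries and TYR was listed at 0, so the tumour cell label rests here on SOX10, S100B, MITF and TFAP2A. The part of these markers in the differences above was not tested.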

How the data were processed

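Messenger RNA libraries of 2 of the 3 samples were analysed, 1 per group. Per the series design text, a stranded TruSeq kit for mRNA was used, paired reads of 150 bp came from a HiSeq 2000, and TopHat 1.3.3 placed them on GRCh37. Which tool, annotation and strand setting served for counting is not given in the sources used here. Deposited FPKM, made by the authors, keep zeros.

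From the deposited FPKM, differences in log2(FPKM + 1) and plain ratios were taken with Python 3.11.15, numpy 2.4.6, pandas 2.3.3 and scipy 1.17.1. The filter kept genes whose FPKM reached 1 in either library, and differences of 1 or more in size were called 2-fold. Low genes change less on this scale than in plain ratios. With 1 library per group no test was possible. All 8 members were named. Of each list, the genes called and up to 4 others of highest mean FPKM were named, and any other is said to be so. Values of 2 list genes are not reported here, although they count in the lists. The members and lists were chosen with earlier results of these data known.

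Whole reads were recovered because an FPKM is a whole number divided by length and total. The ratio of the totals came from the commonest ratio of FPKM, shared by 274 genes. Their common factor, 3 of 12 tried, gave lengths that divide the GENCODE 44 exon length in 19.2% of genes. Factors 6, 9 and 12 gave 19.1% but whole lengths in at most 44.2% of 4625 genes with at least 500 reads, against 89.2% with 3. The totals were 16438482 in the A375-VR library and 17811339 in the A375 library. Reads are the smallest whole numbers that give the FPKM with a whole length, so true counts can be multiples and intervals too wide. If both reads of a pair were counted, the counts are not independent and intervals can be too narrow. The median gene past the filter had 619 reads in the A375-VR library and 603 in the A375 library. Intervals of ratios are 95% exact Clopper-Pearson intervals, and those of levels exact Poisson intervals. The ratio of totals, each gene's ratio of reads and the 2-fold calls were tested on data simulated with GENCODE lengths. The common factor, the recovered lengths and the intervals were not tested in this way. Alternatives were other pseudocounts, filters and scalings. Gene positions are from GENCODE 44 on GRCh37 and promoter windows from RefSeq on GRCh38.p14.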

Additional observations from a re-analysis of the deposited data

How the results depend on the processing

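SERPINE2 stayed 2-fold higher under all 7 alternatives, and F3 stayed 2-fold lower under all but the pseudocount of 5. Unless a cause is given beside a value, the cause was not tested. No result turned direction among the genes called. The difference of F3 was -2.26 with a pseudocount of 0.1, -0.81 with 5, and -2.10 after rescaling to a common sum, which raised all values beside the pseudocount. That of SERPINE2 was 1.30 after rescaling, and 1.16 after centring on the median ratio and with the trimmed mean of log ratios. With the pseudocount of 5 the count of members called lower was 0. The median of the members was 0.08 without a filter, which adds 3 low genes, and 0.11 after centring and with the trimmed mean.

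Over all genes, 338 were called higher and 66 lower as reported. With the pseudocount of 0.1 these counts were 689 and 140, and with 5 they were 111 and 11. After rescaling they were 802 and 150, where the raised values let 12554 genes past the filter and not 10761. After centring 276 were higher and 101 lower, so that 73.2% of calls were higher and not 83.7%, and the trimmed mean gave 274 and 103, or 72.7%.

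Among the lists, the coagulation factors had medians of 0.10 with the pseudocount of 5 and 0.00 without a filter. Anticoagulant genes had 0 called higher with the pseudocount of 5, with the filter at FPKM 5, after centring and with the trimmed mean, and 2 after rescaling. Their median was -0.03 with the filter at 5 and 0.31 after rescaling. Plasminogen genes had 0 called higher under the same 4 settings, and medians of -0.02 with the filter at 5, 0.35 after rescaling, and 0.04 after centring and with the trimmed mean. Protease-activated receptors had a median of -0.38 with the filter at 5, which leaves F2R alone. Clearance receptors and PLAUR partners had medians of 0.41 with the pseudocount of 5, 0.28 without a filter, and 0.46 after centring and with the trimmed mean. Matrix genes had 1 called higher and 1 lower after rescaling, and medians of 0.58 after centring and 0.57 with the trimmed mean. Transcription factors had 0 called lower with the pseudocount of 5, and a median of -0.04 after centring and with the trimmed mean.

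With reads matched to the nearest GENCODE length, an alternative chosen after seeing the data, TFPI had 126 reads in the A375-VR library and 90 in the A375 library and an interval of 1.15 to 2.01, and TFPI2 had 357 reads in the A375-VR library and 327 in the A375 library and an interval of 1.02 to 1.38, although its length was then 9.74% off. PLAU had an interval of 0.230 to 1.03, and the other 5 genes kept theirs. Intervals of levels were not redone with matched reads, so the overlaps given above hold for the smallest reads only. No paired analysis was possible because each group has 1 library. Depth limits THBD and PLAU most, with 4 and 6 reads in the A375-VR library.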

Other observations

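The wider serpin family, chosen after values were seen, had 12 of 34 listed members past the filter. Of these 3 were called higher in the A375-VR library (SERPINE2, SERPINF2 and SERPINA5) and 1 lower, beside 3.14% and 0.613% of all genes. All 3 were already counted above. SERPINF2 and SERPINA5 were not called with the pseudocount of 5, the filter at FPKM 5, centring or the trimmed mean. Nothing is read from these counts. The median difference was 0.47, beside 0.10 for all genes past the filter. SERPINB7, the one called lower, had a ratio of 0.234, from 52 recovered reads in the A375-VR library and 241 in the A375 library. SERPINB5, known as maspin, had 0.618 FPKM in the A375-VR library and 2.20 FPKM in the A375 library, a ratio of 0.281 and a difference of -0.98. SERPINH1, a collagen chaperone and not a protease inhibitor, had 29.8 FPKM in the A375-VR library and 30.8 FPKM in the A375 library. SERPINE2 made up 87.7% of the summed FPKM of the family in the A375-VR library and 77.4% in the A375 library.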
